A study of Mus musculus with 6 samples.

Results

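The integrated stress response genes described here are 10 named genes: the transcription factor gene Atf4 and 9 genes known as its targets or close partners, Asns, Chac1, Trib3, Atf3, Sesn2, Ddit4, Slc7a11, Psat1 and Phgdh. They were chosen by name and are 10 of the 22485 genes named on the array, with 13 of its 33026 named probes. Expression was measured on 6 one-colour microarrays in pooled whole blastocysts of the B6C3F1 hybrid mouse, harvested on day 5. In the mimic group, 3 samples were cultured for 72 hours with 400 nM of a synthetic mimic of the microRNA miR-30d. In the scramble group, 3 samples were cultured for the same time with 400 nM of a scrambled oligonucleotide that carried the dye Alexa 488. All embryos were cultured in CCM-30 medium after being flushed from the oviducts of hormone-primed females aged 6 to 8 weeks on day 2 of pregnancy, with 30 embryos per condition, and a dye is named for the control oligonucleotide alone, so an effect of the dye cannot be told apart from that of the mimic. Setting mimic against scramble addresses how the embryo's messengers respond to a microRNA that the endometrium can release.

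The integrated stress response is the pathway by which a cell lowers general protein synthesis under stress. Kinases that sense amino acid shortage, misfolded protein, double-stranded RNA or haem shortage phosphorylate the translation factor eIF2, and the same event raises translation of the Atf4 messenger through short upstream reading frames. ATF4 protein then binds C/EBP-ATF response elements and turns on genes for amino acid uptake and synthesis, tRNA charging, redox defence and feedback control. Early embryos can take up amino acids from their medium, and ATF4 acts mainly through its protein, which an array of messengers does not measure.

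All blastocyst markers were read above the filter, and those of other cell types in part. All 7 trophectoderm markers lay between the 95.3rd and 99.9th percentile of probe brightness, the 7 primitive endoderm markers between the 79.0th and 94.1st, and the 7 inner cell mass and epiblast markers between the 66.1st and 94.3rd. Of 7 markers each, 2 of cumulus cells, 4 of sperm, 3 of blood cells and 3 of stromal cells passed the filter that left out the dimmest 25% of probes. Of 7 oviduct markers 5 passed, among them Epcam, which blastocysts also express, and the mean level of these 5 ran from 7.59 to 7.77 log2 units on mimic arrays and from 7.78 to 8.17 on scramble arrays. The means of the 2 cumulus markers were 7.30 to 7.44 on mimic arrays and 7.07 to 7.68 on scramble arrays, close to the 7.20 of features with no gene name. The means of the blood cell markers were 7.24 to 8.03 on mimic arrays and 7.45 to 7.79 on scramble arrays, those of sperm 7.07 to 7.36 on mimic and 7.25 to 7.44 on scramble arrays, and those of stromal cells 7.19 to 7.39 on mimic and 7.01 to 7.38 on scramble arrays. The blood marker Csf1r, singled out after its values were seen, lay at the 71.2nd percentile, above the epiblast marker Sox2 at the 66.1st. It read 9.46 on mimic replicate 1 and 9.15 on scramble replicate 1, and 7.92 to 8.40 on the other arrays. The other blood markers above the filter, Ptprc and Hbb-b1, lay at the 25.2nd and 26.7th percentile. The part of such cells in the values below was not tested. The replicate 1 arrays stood apart from the others over all 17399 genes tested, with a root mean square deviation from the gene means of 0.45 for the mimic array and 0.58 for the scramble array, against 0.25 to 0.30 for the other 4.

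As a group the integrated stress response genes read slightly higher in mimic-treated embryos, and none passed the test across all genes. One member, Slc7a11, lay below the brightness filter, and the other 9 were tested on their brightest probes. All 9 had a higher mean with the mimic, where 53.2% of all genes tested did. Their median log2 difference (mimic minus scramble throughout) was 0.34, against 0.02 for all genes tested. These members were also brighter, with a median level of 12.91 log2 units against 7.94 for all genes tested. No background of like brightness was used. The lineage markers of the blastocyst also had unequal means: the 7 primitive endoderm markers had a median of 0.34 with 5 higher and 2 lower, the 7 trophectoderm markers -0.09 with 2 higher and 5 lower, and the 7 inner cell mass and epiblast markers 0.12 with 5 higher and 2 lower. Among these, the following genes are named after their values were seen. The endoderm receptor gene Cubn had 0.52 (SE 0.16) with all mimic arrays above all scramble arrays. Dab2 of the same list had -0.47 (SE 0.14) with all mimic arrays below all scramble arrays. The trophectoderm factor gene Cdx2 had -0.62 (SE 0.28), while Elf5 and Tfap2c of that list had 0.53 (SE 0.24) and 0.43 (SE 0.18). Of 7 markers per list, all mimic arrays were above for 1, 1 and 0 (primitive endoderm, inner cell mass and epiblast, trophectoderm). They were below for 1 in each list. Over all genes the shares were 5.58% above and 4.12% below. The part of lineage makeup in the members' values was not tested. In the limma fit with Benjamini-Hochberg adjustment 0 of 9 passed an adjusted p of 0.05 (background 0%), each having an adjusted p of 0.972. In whole embryos fewer cells of a type and less RNA per cell cannot be told apart. An unadjusted p under 0.05 was found for 2 of 9, Atf4 and Trib3, both higher with the mimic (at that level 1.66% of all genes were higher, 1.51% were lower and 3.17% differed in either direction). By probe, 0 of the 12 member probes above the filter passed (background 0%) and 2 had an unadjusted p under 0.05 on the higher side (background 1.78%). The members were picked with earlier results of these arrays known, so these counts describe them and test nothing. The size of the median rested on single arrays: leaving out scramble replicate 1 gave 0.17, leaving out scramble replicate 2 gave 0.52, and leaving out both replicate 1 arrays gave 0.33.

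**Figure D1:**
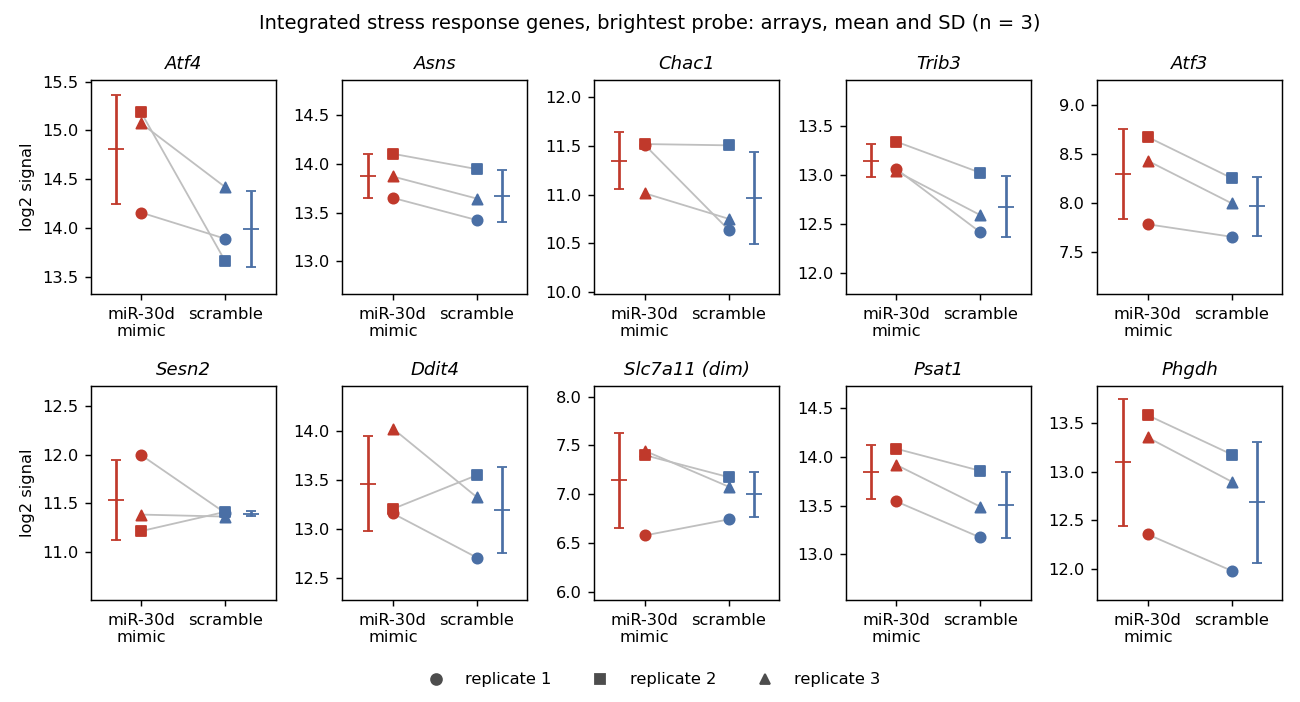
Log2 signal of the brightest probe of each of the 10 genes (vertical axes, log2 units, each spanning the same range) in the miR-30d mimic and scramble groups, with grey lines joining arrays of the same replicate number and bars for mean and SD (n = 3). The lines of Phgdh, Psat1 and Asns run nearly parallel, and only for Trib3 do all mimic arrays lie above all scramble arrays.

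Atf4, the transcription factor at the centre of the response, had the largest log2 difference of the 10 genes on its brighter probe and almost none on its other probe. The brighter probe read 14.16, 15.18 and 15.07 log2 units on mimic replicates 1, 2 and 3, against 13.89, 13.66 and 14.42 on scramble replicates 1, 2 and 3. Mimic replicates 2 and 3 were above every scramble array, while mimic replicate 1 lay below scramble replicate 3, so the groups overlapped. The means were 14.80 ± 0.56 and 13.99 ± 0.39 (mimic and scramble, SD, n = 3 each). Mimic exceeded scramble by 0.82 log2 units (SE 0.31) or 1.76-fold, with a limma adjusted p of 0.972. The other probe, annotated to the same RefSeq transcript, read 9.28, 10.83 and 10.44 on mimic arrays and 9.33, 10.44 and 10.58 on scramble arrays. Here the mimic array was above the scramble array of its number in replicate 2 alone, by 0.38, and the log2 difference was 0.07 (SE 0.43). Whether the 2 probes differ in their response was not tested, and their 95% intervals, 0.11 to 1.53 and -0.91 to 1.05, overlap. With the mean of both probes in place of the brighter one, Atf4 had a log2 difference of 0.44 (limma unadjusted p = 0.238). On the brighter probe, leaving out mimic replicate 2 gave 0.63 and leaving out mimic replicate 1 gave 1.14.

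The 5 genes whose profile over the 6 arrays lay nearest to that of the brighter Atf4 probe were not other members. By root mean square difference of centred log2 values the 5 nearest were the pseudogene Gm5863 (0.26), Trio (0.28), the trophectoderm transcription factor gene Tfap2c (0.29), Hspa5, which encodes the endoplasmic reticulum chaperone BiP (0.29), and the pseudogene Gm7251 (0.29). A gene with no variation would lie at 0.57. Among the members Atf3 was nearest, at rank 199 of the 17399 genes tested, followed by Psat1 at rank 752. Phgdh, Trib3, Asns and Ddit4 came next, at ranks 1257, 1711, 1794 and 4703. The measure also counts amplitude, so a gene of like shape but smaller change lies farther away. Chac1 and Sesn2 were farther from Atf4 than a gene with no variation, at 0.65 and 0.70 (ranks 11013 and 12619).

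Trib3, a pseudokinase that binds ATF4 and restrains it as a feedback inhibitor, was the only member whose groups did not overlap. It read 13.06, 13.34 and 13.04 on mimic arrays, against 12.41, 13.03 and 12.59 on scramble arrays. Every mimic value was above every scramble value, though mimic replicate 3 and scramble replicate 2 were nearly level. Such separation in this direction was found in 1 of 9 tested members and in 5.58% of all genes. The means were 13.15 ± 0.17 and 12.68 ± 0.31 (mimic and scramble, SD, n = 3 each) and the log2 difference was 0.47 (SE 0.18), with a limma adjusted p of 0.972. Leaving out scramble replicate 1 gave 0.34, and leaving out scramble replicate 2 gave 0.65.

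Chac1, which encodes an enzyme that breaks down glutathione and is a target of ATF4 and its partners, read 11.51, 11.52 and 11.01 on mimic arrays, against 10.64, 11.50 and 10.75 on scramble arrays. Scramble replicate 2 was nearly as bright as the brightest mimic arrays, and the other scramble arrays were the dimmest of the 6. The log2 difference was 0.38 (SE 0.24). Leaving out scramble replicate 2 gave 0.65, leaving out scramble replicate 1 gave 0.22, and leaving out both replicate 1 arrays gave 0.14.

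Atf3, a stress-induced factor of the same leucine zipper class as ATF4, was the dimmest of the tested members. It read 7.78, 8.67 and 8.43 on mimic arrays and 7.65, 8.25 and 7.99 on scramble arrays. Both replicate 1 arrays were the lowest of their groups. The log2 difference of 0.33 (SE 0.34) was within the spread of the arrays, and moved to 0.59 without mimic replicate 1 and to 0.14 without mimic replicate 2.

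On their brightest probes, enzymes of amino acid synthesis gave small differences that had the same sign in all 3 same-numbered pairs of arrays. Mimic was above scramble in all 3 pairs for 7 of 9 tested members, these enzymes included, and for 19.1% of all genes. Phgdh, the first enzyme of serine synthesis from a glycolytic intermediate, read 12.35, 13.58 and 13.35 on mimic arrays, against 11.98, 13.17 and 12.89 on scramble arrays. Both replicate 1 arrays lay far below the rest, and within each number the mimic array was higher, by 0.37, 0.40 and 0.45. The log2 difference was 0.41 (SE 0.38), and 0.23 (SE 0.29) on the second Phgdh probe, whose pair differences were 0.06, 0.28 and 0.36. Psat1, the aminotransferase of the next step, read 13.54, 14.08 and 13.92 on mimic arrays, against 13.17, 13.86 and 13.49 on scramble arrays. The groups overlapped, with pair differences of 0.37, 0.23 and 0.43 and a log2 difference of 0.34 (SE 0.22). Its second probe had a log2 difference of 0.10 (SE 0.20), and its pair differences were -0.30, 0.47 and 0.14. Asns, which makes asparagine from aspartate and glutamine, read 13.65, 14.10 and 13.87 on mimic arrays, against 13.42, 13.95 and 13.64 on scramble arrays. Its pair differences were 0.23, 0.16 and 0.23 and its log2 difference was 0.20 (SE 0.19). For all 3 enzymes the difference without scramble replicate 1 was the lowest of those with 1 array left out, with 0.06 for Phgdh, 0.18 for Psat1 and 0.08 for Asns, while without mimic replicate 1 it was 0.78, 0.49 and 0.32.

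**Figure D2:**
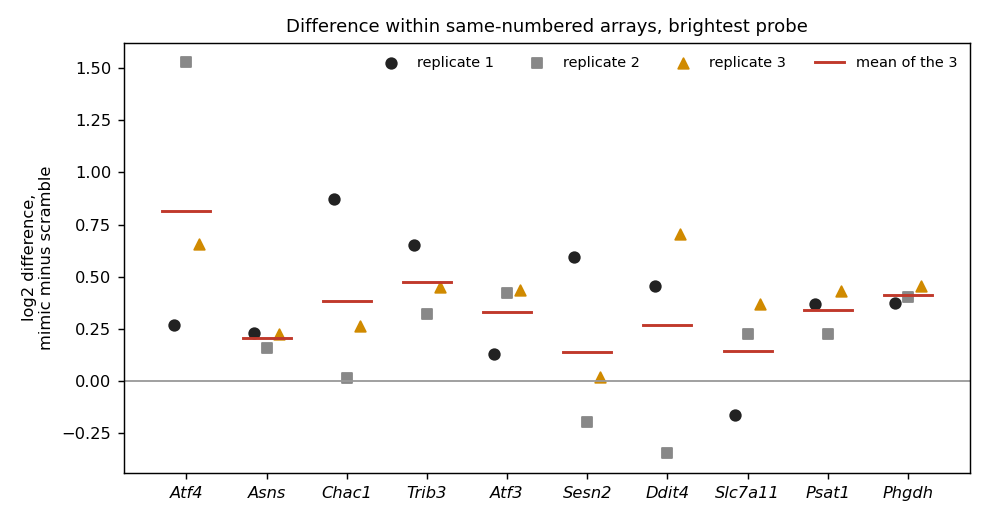
Log2 difference between the mimic and the scramble array of the same replicate number (vertical axis, log2 units) for the brightest probe of each gene, with the mean of the 3 as a line. Phgdh (0.37 to 0.45) and Asns (0.16 to 0.23) have closely spaced points above 0, while Atf4 spans 0.27 to 1.53 and the replicate 2 pair of Ddit4 and Sesn2 lies below 0.

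Sesn2 and Ddit4 encode inhibitors of the growth kinase complex mTORC1, and both can also be induced by other stress pathways, p53 and low oxygen among them. Sesn2 read 11.99, 11.21 and 11.38 on mimic arrays, against 11.40, 11.41 and 11.36 on scramble arrays. Mimic replicate 1 was the highest array and mimic replicate 2 the lowest, with the scramble arrays close together between them. The log2 difference was 0.14 (SE 0.20), and -0.093 when mimic replicate 1 was left out. Ddit4 read 13.16, 13.20 and 14.03 on mimic arrays, against 12.70, 13.55 and 13.32 on scramble arrays. Mimic replicate 3 was the highest array, and the other mimic arrays lay within the scramble range. The log2 difference was 0.27 (SE 0.29), and it came to -0.012 when mimic replicate 3 was left out and to 0.03 when scramble replicate 1 was. Neither gene had mimic above scramble in all 3 pairs.

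Slc7a11, the cystine importer subunit that feeds glutathione synthesis, was too dim to be tested. Its probe was brighter than 13.2% of named probes and read 6.58, 7.40 and 7.45 on mimic arrays, against 6.74, 7.17 and 7.08 on scramble arrays. The replicate 1 arrays were the lowest of both groups, and the groups overlapped. In a fit of all named probes without the filter its log2 difference was 0.14 (SE 0.25). These values are near those of features with no gene name, so a difference in Slc7a11 was not detectable at this signal.

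**Figure D3:**
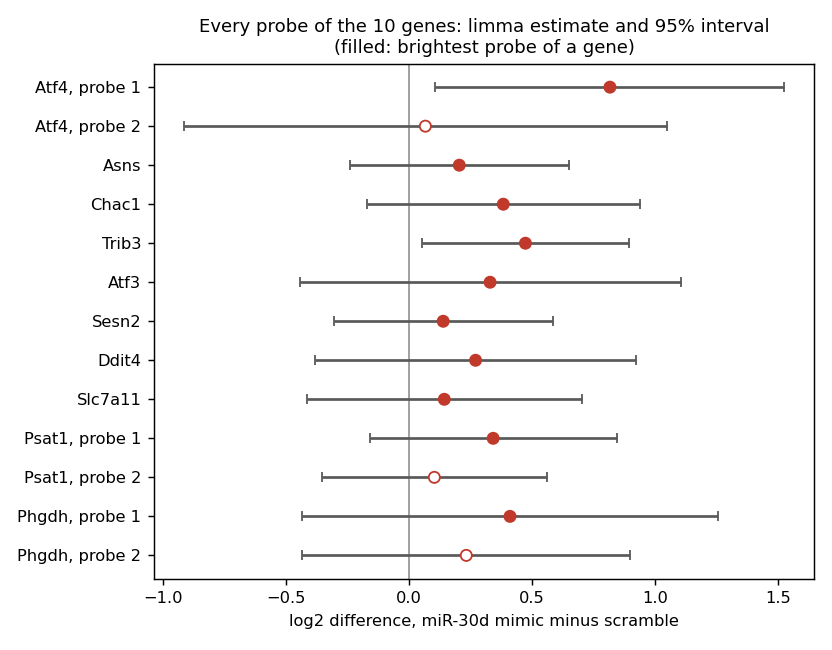
Log2 difference, mimic minus scramble (horizontal axis), with its 95% interval from limma for each of the 13 probes of the 10 genes, filled for the brightest probe of a gene. All 13 estimates are above 0, and the intervals of all but the brighter Atf4 probe and Trib3 include 0.

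The members also varied between replicate numbers, as most genes tested did. For 7 of the 9 tested members, all but Atf4 and Trib3, the means of the same-numbered pairs ranged over more than the difference between groups. The share over all genes was 81.4%. A range over 3 pair means and a difference between group means are unlike measures, so neither share weighs replicate number against treatment. The range of pair means was 1.21 log2 units for Phgdh and had a median of 0.63 over the 9 members, against 0.41 over all genes tested. The replicate 1 pair was the lowest in 7 of the 9 members, all but Chac1 and Sesn2, and in 46.9% of all genes. By single array, scramble replicate 1 was the lowest of the 6 in 7 members (31.9% of all genes), and mimic replicate 2 was the highest in 7 members (14.7% of all genes). Mimic was above scramble in all 3 pairs in 7 of 9 members, against 19.1% of all genes.

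With the replicate number as a block in the limma fit, 0 of 9 members passed the adjusted threshold, where 0.00575% of genes did, and their adjusted p ran from 0.373 for Phgdh to 0.775 for Sesn2. Unadjusted p under 0.05 was then found in 5 of 9, all higher with the mimic: Phgdh (0.00151), Trib3 (0.00188), Psat1 (0.00619), Atf4 (0.00931) and Asns (0.0414). Over all genes 3.95% were higher at that level under the block. The standard error of Phgdh was 0.08 with the block and 0.38 without it. Without both replicate 1 arrays 0 of 9 passed (background 0%), and 3 of 9 had an unadjusted p under 0.05 in limma, Atf4 (0.00214), Phgdh (0.0332) and Atf3 (0.0413), where 3.11% of all genes were higher at that level.

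Composite elements read by ATF4 with a C/EBP partner lie close to the start of several members, and the matches below show which of them carry that sequence in their RefSeq promoter window. The windows run from 250 bases before to 50 bases after a transcript start of assembly GRCm38.p6, and all 10 members had at least 1. The motif TGATGNAAN was searched on both strands. It was found in 5 of the 10 members and in 4.50% of all 27025 genes with a window, or 3.95% of all 32851 windows. The members were listed as known ATF4 targets or partners, so a higher share was likely beforehand and tests nothing. Each match is printed 5′ to 3′ on the strand that holds it, with 10 flanking bases on either side and the motif in capitals.
Asns, chr6:7693214-7693242, minus strand: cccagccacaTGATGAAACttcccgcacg
Chac1, chr2:119351038-119351066, minus strand: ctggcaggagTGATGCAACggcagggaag
Trib3, chr2:152344029-152344057, plus strand: cccgcccggcTGATGTAAAcctgagctaa
Atf3, chr1:191183426-191183454, plus strand: gcggacttggTGATGCAAGtgcgagaagg
Slc7a11 upstream match, chr3:50443661-50443689, minus strand: ctcatgtggcTGATGCAAAcctggagaat
Slc7a11 downstream match, chr3:50443643-50443671, plus strand: ggctgcatgaTGATGCAAAttctccaggt

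The Asns match, TGATGAAAC, is the sequence known as nutrient-sensing response element 1 of this gene, and lay at bases -23 to -15 from the start. Those of Atf3 and Chac1 lay at -111 to -103 and at -194 to -186, on the strand opposite to the gene. The Slc7a11 window held the same 9 bases on both strands, at -66 to -58 and at -48 to -40, in an inverted arrangement. The Trib3 match lay just inside the transcript, at bases 14 to 22. The 4 tested members with a match (Asns, Chac1, Trib3 and Atf3) had log2 differences of 0.20 to 0.47, and the 5 without one in this window (Atf4, Sesn2, Ddit4, Psat1 and Phgdh) had 0.14 to 0.82, so the ranges overlap. The cyclic AMP response element TGACGTCA, searched in the same way, was in 0 of the 10 members and in 2.03% of all genes. The 250 bases before the Asns start (chr6:7693210-7693459, minus strand, GRCm38.p6), with the element in capitals, show how close it lies to the start, which follows the last base.
Asns upstream: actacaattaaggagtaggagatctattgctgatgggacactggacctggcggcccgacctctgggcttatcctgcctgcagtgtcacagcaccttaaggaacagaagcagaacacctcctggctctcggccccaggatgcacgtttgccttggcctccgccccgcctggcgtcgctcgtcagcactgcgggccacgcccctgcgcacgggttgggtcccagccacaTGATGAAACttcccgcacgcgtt

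Beyond the members, 90 other genes of the pathway were grouped by role into 8 lists, and 85 of them could be tested. Of these 61 had a higher mean with the mimic and 24 a lower one, with a median log2 difference of 0.13. In limma 0 of the 85 passed the adjusted threshold, with the replicate block (background 0.00575%) or without it (background 0%). At an unadjusted p under 0.05, 10 were higher and 2 lower, against 1.66% and 1.51% of all genes.

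The upstream arm of the pathway was close to even. Of 15 tested genes for the eIF2 kinases, eIF2 and its regulators 8 had a higher mean and 7 a lower one (median 0.01). All 3 mimic arrays were below all scramble arrays for Eif2b4, a subunit of the exchange factor that reloads eIF2 (log2 difference -0.36, SE 0.13), and for Ppp1r15b, the constitutive targeting subunit of the eIF2 phosphatase (-0.50, SE 0.34). Mimic replicate 1 read 7.53 for Ppp1r15b and the other mimic arrays 8.59 and 8.62, against 8.67 to 8.78 on scramble arrays, and without mimic replicate 1 the difference was -0.14. Separation in this direction was found in 4.12% of all genes. Ppp1r15a, the stress-induced subunit of that phosphatase, had 0.30 (SE 0.18), or 0.17 with scramble replicate 1 left out. Without mimic replicate 2 the median of this list was -0.08 and without mimic replicate 1 it was 0.16.

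Among 7 leucine zipper partners and feedback factors 5 were higher and 2 lower (median 0.09). Jdp2, a repressor of the AP-1 class, read 11.05, 10.93 and 10.80 on mimic arrays, against 10.04, 10.75 and 10.16 on scramble arrays, a log2 difference of 0.61 (SE 0.20). Cebpb, a C/EBP partner of ATF4, had 0.54 (SE 0.18) and also did not overlap, and Atf5, a close relative of ATF4 that it induces, had 0.21 (SE 0.15). All mimic arrays were above all scramble arrays in 2 of the 7, against 5.58% of all genes. Ddit3, which encodes the stress factor CHOP and is named here after its values were seen, ran the other way at -0.36 (SE 0.26). It read 8.33, 9.03 and 8.86 on mimic arrays, against 9.37, 8.89 and 9.03 on scramble arrays. Without mimic replicate 1 the Ddit3 difference was -0.15, and without scramble replicate 1 the median of the list was -0.11.

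The amino acid transporters and the mixed list of serine, one-carbon, proline and transsulfuration enzymes had the highest medians of the 8 lists with all arrays in. Of 8 transporters 7 were higher (median 0.36), with an unadjusted p under 0.05 for 3, against 1.66% of all genes on that side. These were the cationic amino acid transporters Slc7a1 (log2 difference 0.48, SE 0.19) and Slc7a3 (0.43, SE 0.17) and the glycine transporter Slc6a9 (0.54, SE 0.21), whose second probe gave 0.45. Each of the 3 overlapped between groups. Of 13 enzymes of serine, one-carbon, proline and transsulfuration metabolism 9 were higher (median 0.28). Psph, which completes the serine pathway of Phgdh and Psat1, read 12.32, 12.34 and 12.15 on mimic arrays, against 11.56, 12.00 and 11.96 on scramble arrays. Its groups did not overlap, with a log2 difference of 0.43 (SE 0.15), and its second probe gave 0.33. The mitochondrial folate enzymes Mthfd2 and Mthfd1l had 0.28 (SE 0.14) and 0.39 (SE 0.16). Mthfd2 also did not overlap, so 2 of the 13 enzymes had all mimic arrays above, against 5.58% of all genes. Without scramble replicate 1 the medians were 0.19 for the transporters and 0.08 for the enzymes, the second then below the 0.15 of the relatives of the members.

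The 12 aminoacyl-tRNA synthetases counted to the ATF4 programme had 10 higher and 2 lower, with a median of 0.12, and 7 other cytosolic synthetases had 4 higher and 3 lower, with a median of 0.0044. In the first list the alanine enzyme Aars had -0.24 (SE 0.12), with all mimic arrays below all scramble arrays, and 0.08 on its dimmer second probe. The leucine enzyme Lars had 0.39 (SE 0.16) with the groups apart the other way, and the tyrosine enzyme Yars had 0.66 (SE 0.33). Of the 12, 1 was apart upward and 1 downward, against 5.58% and 4.12% of all genes. In the second list the enzymes for arginine, valine and glutamine, Rars, Vars and Qars, had 0.55 (SE 0.52), 0.21 (SE 0.31) and -0.15 (SE 0.16). Rars read 7.26 on scramble replicate 1 and 9.14 to 9.46 on the other 5 arrays, and with that array left out Rars and Vars each had -0.15 and Yars 0.44. Leaving out scramble replicate 1 gave medians of 0.03 and -0.15 for the 2 lists, and leaving out mimic replicate 1 gave 0.32 and 0.04.

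Of 14 other tested targets of ATF4 and CHOP 12 were higher (median 0.22, and 0.03 with scramble replicate 1 left out). Herpud1, which acts in the disposal of misfolded endoplasmic reticulum proteins, had 0.47 (SE 0.15), and Tnfrsf10b, the death receptor, had 0.41 (SE 0.22). Both had all mimic arrays above all scramble arrays. The autophagy gene Map1lc3b had -0.26 (SE 0.12) with all mimic arrays below. Its 10 probes ran from -0.33 to -0.18, all read on the same samples, so they are not independent. Of the 14 genes 2 were apart upward and 1 downward, against 5.58% and 4.12% of all genes. Of 9 genes related to the members by sequence 6 were higher (median 0.12), or 4 of 9 without scramble replicate 3 (median -0.05). Trib1, of the Trib3 family, had -0.84 (SE 0.32) and -0.26 on its second probe, and the value was -0.55 with mimic replicate 1 left out. Atf2 had 0.69 (SE 0.27) on its brightest probe and -0.25 to 0.16 on 3 others, with 0.40 for the brightest when scramble replicate 1 was left out. Sesn1, of the Sesn2 family, had -0.24 (SE 0.24). On brightest probes all mimic arrays were above for Atf2 and below for Sesn1, 1 of the 9 relatives each way.

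**Figure D4:**
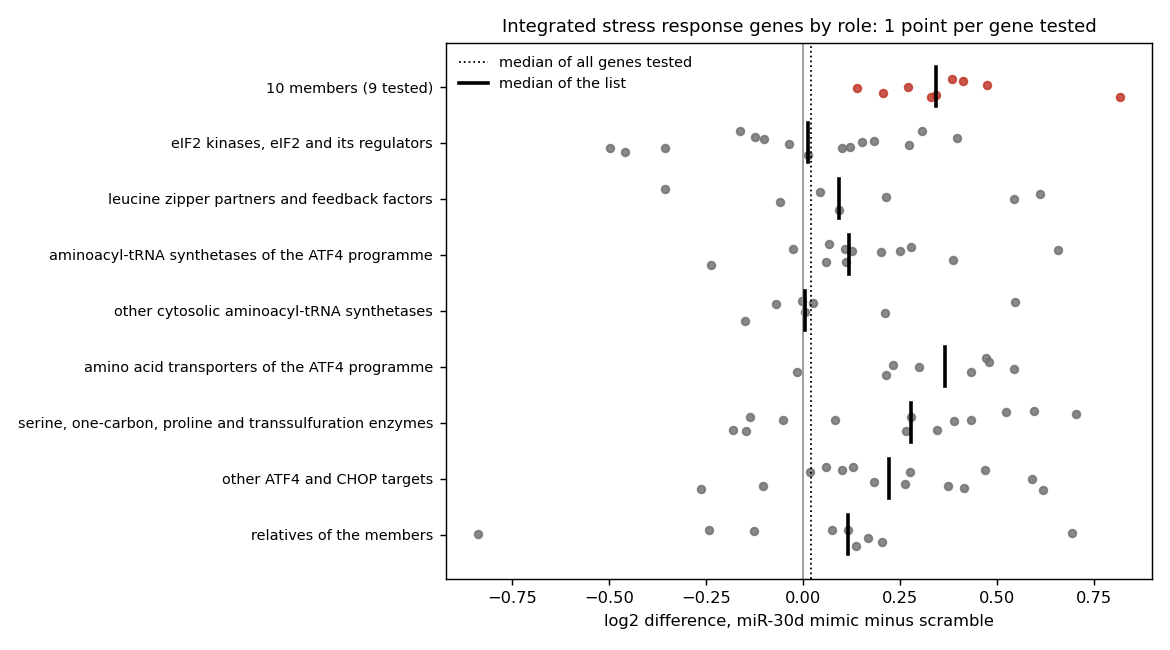
Log2 difference, mimic minus scramble (horizontal axis), of each tested gene, grouped by role (vertical axis), with a bar at each list's median and a dotted line at the median of all genes tested (0.02). The 9 tested members (median 0.34), the amino acid transporters (0.36) and the serine, one-carbon, proline and transsulfuration enzymes (0.28) lie to the right. The eIF2 machinery (0.01) is centred near 0.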

How the data were processed

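The deposited table holds log2 signal of 45220 features on 6 Cy3 arrays, 3 mimic and 3 scramble by sample title, and per the labels 50 ng of total RNA (RIN above 9.0) was amplified with T7 RNA polymerase. For the authors' scanning, background correction and normalization, no method was given in the sources used here. The 6 array medians were 7.37 to 7.38, so a shift shared by most genes would not be seen. The titles say biological replicates, and no label names separate matings or days, so the p-values reflect only how far these samples spread, which may be technical. The number of arrays limits the precision, with a median standard error of 0.25.

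Features were named from the platform annotation, with 33026 having 1 symbol, 0 several and 12194 none. Symbols were updated by Entrez identifier through RefSeq (GRCm38.p6), which matched 98.2%. All 10 members matched by symbol. The lowest 25% of named probes by mean over the arrays were left out, keeping 24769 probes and 17399 genes, each gene on its brightest probe. Second probes were read from the fit of all 24769 probes, and so were the intervals. Differences were tested with limma 3.58.1 in R 4.3.3 (trend, two-sided, Benjamini-Hochberg over all genes or probes, threshold 0.05), and the code was tested on simulated data. Figures used matplotlib 3.10.9.

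The members, lists and tests were chosen with earlier results of these data known. The text names all members, the 3 genes of smallest unadjusted p in each list, and the 5 genes nearest to the profile of Atf4. After subtraction of group means, arrays that share a number correlated over genes at 0.328, 0.349 and 0.204 for replicates 1, 2 and 3. Every pair exceeded 0.1, the rule for pairing, which is read from the data and not from the labels. Arrays of unlike number also passed 0.1 between mimic 3 and scramble 2 (0.185) and mimic 2 and scramble 3 (0.124), so replicates 2 and 3 are less clearly paired than replicate 1. Alternatives were the replicate block, other filters, quantile normalization, median centring, no trend, probe means and each array left out.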

Additional observations from a re-analysis of the deposited data

How the results depend on the processing

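In the 14 alternatives run, no member passed an adjusted p of 0.05 in limma, and the smallest adjusted p of a member was 0.373. The replicate block, the other filters and the fit without trend left each tested member's log2 difference unchanged, so those values could not reverse. With these counted, 123 of 126 alternative values of single members kept their direction. The exceptions were Sesn2, at -0.093 without mimic replicate 1 and -0.089 without both replicate 1 arrays, and Ddit4, at -0.012 without mimic replicate 3; the cause was not tested. With each array left out in turn Sesn2 ran from -0.093 to 0.30, Ddit4 from -0.012 to 0.45, and the median of the members from 0.17 to 0.52. The median of the serine, one-carbon, proline and transsulfuration enzymes ran from 0.082 to 0.35 in the same way. Quantile normalization and median centring kept all 9 tested members on the higher side. Centring could change little, as the array medians were already 7.37 to 7.38 (Sesn2, the smallest, went from 0.14 to 0.13). With the replicate block 1 gene and 1 probe of all those tested passed, against 0 and 0 without it, and neither was a member. The unadjusted count over all genes was 552 without the block and 1260 with it. Without scramble replicate 2 it was 919, without both replicate 1 arrays 1000, and without mimic replicate 2 or 3 it was 362 and 377. The block changed no adjusted call of a member or list gene. Signal near background limits Slc7a11, and detection flags were not used here.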
